A study of Homo sapiens with 15 samples.

Results

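Germ cell and piRNA pathway transcripts were followed in a pair of human ovarian cancer cell lines before and after epigenetic drugs. The set held 10 genes (DAZL, DDX4, GCNA, PIWIL1, PIWIL2, MAEL, GTSF1, TDRD1, TDRD9 and ASZ1) of the 19775 genes named by a single symbol on the array. Members were taken by name from the platform's annotation, so that the rule itself used no measured value, but the set was proposed with earlier results of these data known. The members were read by 12 of the 54613 probe sets tested. PIWIL2 had 3 probe sets and the other 9 genes had 1 each.

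RNA from 15 Affymetrix arrays was compared in 5 groups of 3, described as biological triplicates. A2780 is an ovarian cancer line sensitive to cisplatin, and CP70 is a resistant derivative of it. Decitabine, a nucleoside analog, traps DNA methyltransferases on DNA so that methylation is lost as cells divide. PXD101 (belinostat) is an inhibitor of histone deacetylases. The groups were untreated A2780, untreated CP70, CP70 given 0.1 µM decitabine for 48 h, CP70 given 0.1 µM PXD101 for 48 h, and CP70 given both drugs at these doses, with decitabine for 48 h and PXD101 for 24 h. Treated cells were harvested 96 h after drug removal. PXD101 was thus present for longer on its own than in combination, and A2780 was not treated with either drug. Each line stands for a single tumour-derived culture, and the sources used here do not say how far the triplicates were separated, so the p-values measure the spread between these arrays.

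PIWI proteins are Argonautes that carry piRNAs, small RNAs that guide the silencing of transposons in the germ line. Tudor domain proteins, helicases and scaffold proteins assemble PIWI proteins into perinuclear granules, where piRNAs are made and matured. Most of these genes, with RNA-binding germ cell regulators such as DAZL and DDX4, are expressed in testis and ovary and are silent in other adult tissues, where several of their promoters carry DNA methylation.

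All values are the authors' log2 expression values. Array medians lay between 5.00 and 5.06, and the lower quartile of all values was 3.74, near which a log2 difference can understate a change. CP70 replicate 2 stood apart from its label: over all probe sets it correlated at 0.9945 to 0.9955 with the 3 PXD101 arrays, but at 0.9843 and 0.9861 with CP70 replicates 1 and 3. The 3' actin probe set exceeded the 5' one, a sign of RNA quality, by 0.629 to 0.859 in untreated CP70, by 0.337 to 0.508 in the A2780, PXD101 and combination arrays, and by 0.342, 0.443 and 0.787 with decitabine, the last in replicate 3. The GAPDH 3' minus 5' value was 0.187 in decitabine replicate 3. It lay between -0.055 and 0.025 on all other arrays, those of untreated CP70 included. In every group, 3 of 12 ovarian epithelial markers had means below the lower quartile. The epithelial transcription factor PAX8 stood at 7.08 ± 0.04 in A2780 and 7.28 ± 0.12 in CP70 (SD, n = 3), whereas WT1 was at 3.63 and 3.68.

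The promoters are shown first because decitabine acts on methylated CG dinucleotides. RefSeq promoter entries on GRCh38.p14 were matched for 9 of the 10 genes, all but PIWIL2. Printed here, 5′ to 3′ on the gene's strand, are the 250 bases before the most upstream start among the matched entries. They are given for the 6 matched genes that passed the test as higher with decitabine alone. PIWIL1, which did not pass, was chosen after its values were seen. The entries may not hold every start of a gene, so a window can lie inside the gene. CG dinucleotides are in capitals. The windows are chr3:16605424-16605673 on the minus strand for DAZL, chr5:55766635-55766884 on the plus strand for DDX4, chrX:71578187-71578436 on the plus strand for GCNA, chr1:166975332-166975581 on the plus strand for MAEL, chr12:54473603-54473852 on the minus strand for GTSF1, chr14:103928206-103928455 on the plus strand for TDRD9 and chr12:130337637-130337886 on the plus strand for PIWIL1.
DAZL: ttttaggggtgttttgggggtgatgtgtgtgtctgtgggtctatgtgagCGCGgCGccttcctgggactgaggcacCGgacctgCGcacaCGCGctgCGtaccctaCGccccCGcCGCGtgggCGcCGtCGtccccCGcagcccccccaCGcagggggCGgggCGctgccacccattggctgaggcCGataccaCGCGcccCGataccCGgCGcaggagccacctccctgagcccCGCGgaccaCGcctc
DDX4: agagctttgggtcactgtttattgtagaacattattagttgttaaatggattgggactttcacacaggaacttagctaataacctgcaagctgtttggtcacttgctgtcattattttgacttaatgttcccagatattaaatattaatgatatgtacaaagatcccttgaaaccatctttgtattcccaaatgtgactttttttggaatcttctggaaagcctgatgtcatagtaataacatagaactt
GCNA: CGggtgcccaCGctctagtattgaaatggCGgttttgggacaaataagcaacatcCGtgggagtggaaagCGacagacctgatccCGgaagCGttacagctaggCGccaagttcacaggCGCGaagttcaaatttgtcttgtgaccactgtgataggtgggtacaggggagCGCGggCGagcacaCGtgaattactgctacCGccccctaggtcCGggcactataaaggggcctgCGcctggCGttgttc
MAEL: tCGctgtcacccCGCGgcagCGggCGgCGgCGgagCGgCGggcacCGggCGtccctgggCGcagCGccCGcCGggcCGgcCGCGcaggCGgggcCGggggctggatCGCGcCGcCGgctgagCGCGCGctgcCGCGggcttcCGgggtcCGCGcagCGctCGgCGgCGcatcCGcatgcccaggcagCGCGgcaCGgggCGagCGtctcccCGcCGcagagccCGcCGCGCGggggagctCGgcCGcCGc
GTSF1: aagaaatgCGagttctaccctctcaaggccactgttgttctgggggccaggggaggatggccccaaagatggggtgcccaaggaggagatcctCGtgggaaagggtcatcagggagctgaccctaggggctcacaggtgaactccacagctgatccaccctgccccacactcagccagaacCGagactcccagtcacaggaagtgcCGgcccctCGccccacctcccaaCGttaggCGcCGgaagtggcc
TDRD9: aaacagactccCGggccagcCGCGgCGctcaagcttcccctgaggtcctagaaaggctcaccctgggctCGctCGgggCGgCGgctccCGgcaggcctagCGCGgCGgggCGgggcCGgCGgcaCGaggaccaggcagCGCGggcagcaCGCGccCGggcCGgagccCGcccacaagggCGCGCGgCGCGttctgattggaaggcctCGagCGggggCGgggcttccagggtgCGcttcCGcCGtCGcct
PIWIL1: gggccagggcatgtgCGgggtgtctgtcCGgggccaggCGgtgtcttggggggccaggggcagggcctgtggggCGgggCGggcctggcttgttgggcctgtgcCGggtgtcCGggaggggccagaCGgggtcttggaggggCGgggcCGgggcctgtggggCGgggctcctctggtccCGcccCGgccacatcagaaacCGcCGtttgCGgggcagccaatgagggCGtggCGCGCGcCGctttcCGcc

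These windows differed widely in CG content. The MAEL window held 51 CG, more than 99.9% of the 35116 windows of all 27305 genes in the table, and the TDRD9 window held 35. DAZL had 28, PIWIL1 22, GCNA 18 and GTSF1 8, against a median of 11 and quartiles of 3 and 23 over all windows. No CG occurred in the DDX4 window, which had a GC content of 33.6%. It was the 1 window held for DDX4, and whether the gene has a start further upstream was not tested. Of the windows not printed, ASZ1 held 21 CG and the first TDRD1 window 13. DAZL and MAEL each had another, more downstream start, with 23 and 22 CG in the 250 bases before it.

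A pair of short motifs was also searched on both strands: CACGTG, the E-box read by MAX heterodimers, and TCCCGC, an E2F6-type site. They can share at most 1 base, and each contains a CG. CACGTG was found 1 time in the GCNA window, 1 time each in the downstream windows of DAZL and MAEL, and 2 times in the first TDRD1 window, and it occurred in 6.34% of all windows. TCCCGC was found in the downstream DAZL window and in the ASZ1 and PIWIL1 windows, and it occurred in 23.5% of all windows. These are matches of letters, and methylation and factor binding were not measured here.

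**Figure D1:**
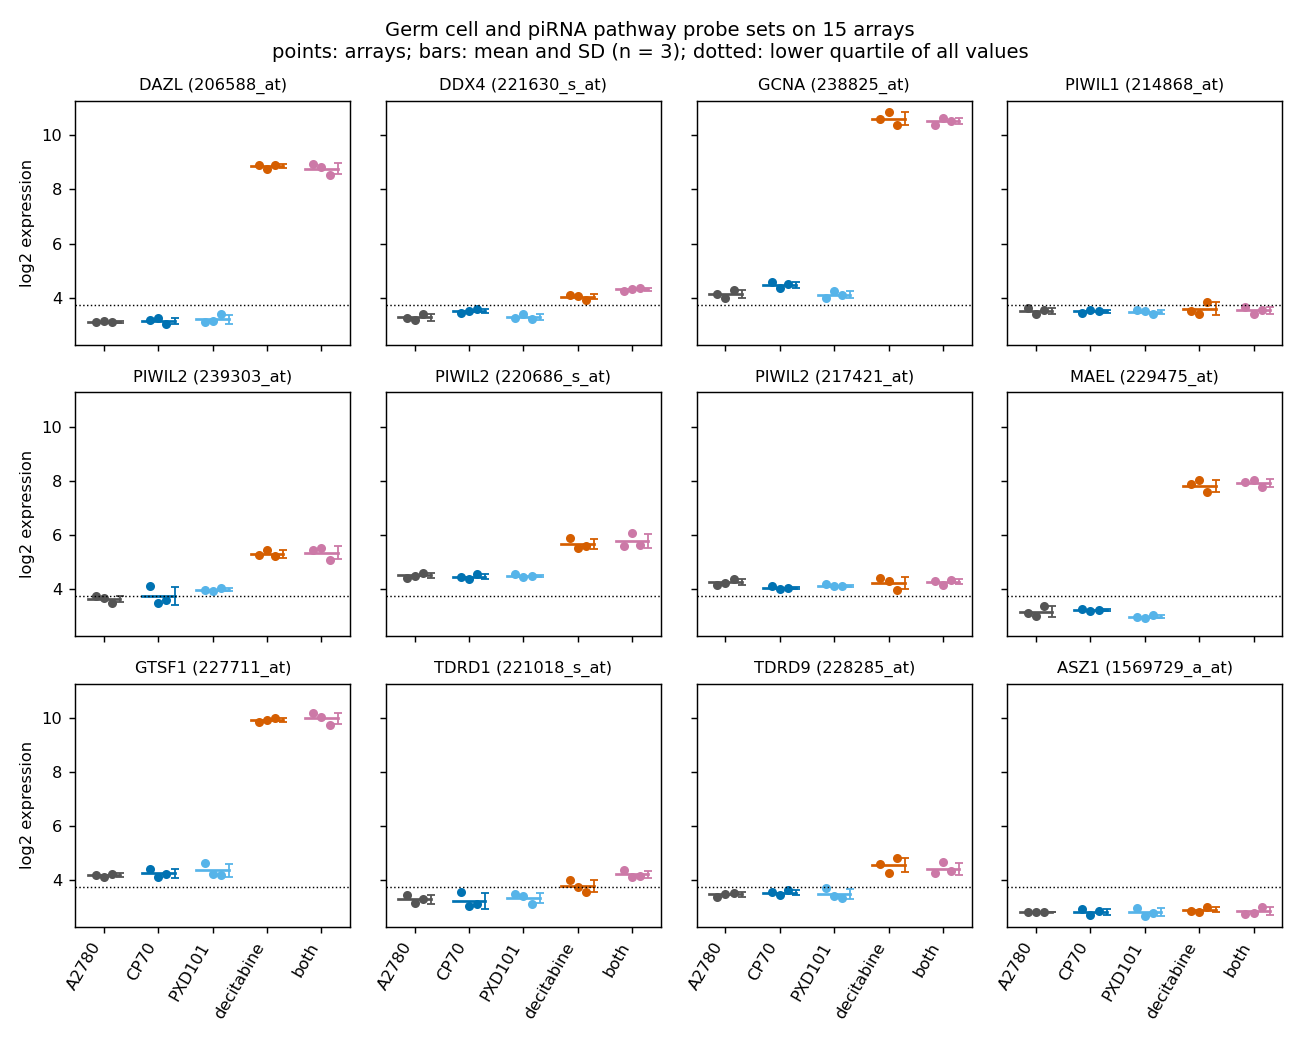
Log2 expression (vertical axis) of the 12 probe sets on each of 15 arrays, by group (horizontal axis); points are arrays, bars are the mean and SD of 3 arrays, and the dotted line is the lower quartile of all values (3.74). DAZL, GCNA, MAEL and GTSF1 stand at 7.58 or higher on all 6 arrays with decitabine and at 4.64 or lower on all others, whereas the arrays of neighbouring groups overlap for PIWIL1 and ASZ1.

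The comparison of decitabine-treated with untreated CP70 asked which of these genes respond to the methyltransferase inhibitor alone. Of the 12 probe sets, 8 were higher after decitabine by limma at an adjusted p under 0.05 and none was lower, against 2.91% of all probe sets called higher. By rank product, the test named in the study's design, 7 were higher, against 0.967% of all. The median difference of the 12 probe sets was 1.11, and that of all probe sets was 0.001. The changes were of unequal size: DAZL, GCNA, GTSF1 and MAEL rose by 24.1-fold to 70.9-fold, PIWIL2, TDRD9 and DDX4 rose by 1.45-fold to 2.96-fold, and TDRD1, PIWIL1 and ASZ1 did not pass. On bulk arrays, a higher level in all cells cannot be told apart from expression in a larger share of them.

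DAZL, an RNA-binding protein that promotes translation of germ cell mRNAs, read 3.19, 3.23 and 3.02 in the 3 untreated CP70 arrays and 8.91, 8.76 and 8.91 after decitabine. The A2780 arrays read 3.09, 3.13 and 3.08, the PXD101 arrays 3.08, 3.14 and 3.39, and the arrays with both drugs 8.94, 8.83 and 8.54. All 6 arrays with decitabine were thus high and all 9 without it low, with no overlap. The rise with decitabine alone was 5.71 ± 0.11 (SE), or 52.4-fold (limma adjusted p = 4.79e-14), the 14th largest difference of all probe sets.

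GCNA, a nuclear acidic protein of germ cells with a role in clearing protein crosslinks from DNA, gave the largest change of the set. It read 4.56, 4.35 and 4.51 in untreated CP70 and 10.62, 10.86 and 10.38 after decitabine, a rise of 6.15 ± 0.12 or 70.9-fold (limma adjusted p = 5.72e-14). With both drugs it read 10.40, 10.63 and 10.54, which overlapped decitabine alone. It read 4.12, 3.98 and 4.28 in A2780 and 3.97, 4.23 and 4.09 with PXD101, so that all 6 arrays with decitabine lay above all 9 without it.

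GTSF1, a small zinc finger protein that works as a partner of PIWI proteins, read 4.42, 4.10 and 4.23 in untreated CP70 and 9.85, 9.91 and 10.00 after decitabine. The groups did not overlap, and the rise was 5.67 ± 0.13 or 50.9-fold (limma adjusted p = 3.39e-13). Its levels were 10.17, 10.04 and 9.73 with both drugs, 4.64, 4.24 and 4.19 with PXD101, and 4.20, 4.11 and 4.24 in A2780. GTSF1 rose to this extent with 8 CG in its window, and DAZL with 28.

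MAEL, the maelstrom protein of germ cell granules needed for transposon silencing, read 3.27, 3.20 and 3.22 in untreated CP70 and 7.88, 8.01 and 7.58 after decitabine. The rise was 4.59 ± 0.12 or 24.1-fold (limma adjusted p = 1.12e-12), with no overlap of the groups. With both drugs MAEL read 7.94, 8.04 and 7.77, with PXD101 2.95, 2.94 and 3.04, and in A2780 3.12, 2.98 and 3.38.

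Between them, DAZL, GCNA, GTSF1 and MAEL passed the test in every alternative fit that could include them. Over these fits the rise ranged from 5.63 to 5.76 for DAZL, 6.03 to 6.27 for GCNA, 5.59 to 5.82 for GTSF1 and 4.50 to 4.71 for MAEL. The fit on probe sets above the median level is no support here. DAZL, GCNA and GTSF1 entered it only through their high arrays with decitabine. Without CP70 replicate 2, the array near the PXD101 group, 8 of 12 were again higher, against 8.30% of all probe sets in that fit, and the rises were 5.754, 6.088, 5.593 and 4.574 in that order. The actin 3' minus 5' value differed between untreated CP70 and most treated arrays, and its part in these results was not tested. Decitabine replicate 3 lay within the CP70 range on actin, at 0.787, and above it on GAPDH, at 0.187. This 1 array read 8.91 for DAZL, 10.38 for GCNA, 10.00 for GTSF1 and 7.58 for MAEL.

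Of the PIWI proteins in the set, PIWIL2 rose and PIWIL1 did not pass. PIWIL4, counted below with the other pathway genes, read 3.39, 3.40 and 3.55 in untreated CP70 and 3.94, 4.32 and 4.25 after decitabine. PIWIL2 probe set 239303_at read 4.10, 3.48 and 3.60 in untreated CP70 and 5.24, 5.44 and 5.20 after decitabine, and rose by 1.56 ± 0.15 or 2.96-fold (limma adjusted p = 1.1e-05). Probe set 220686_s_at read 4.45, 4.35 and 4.55 and then 5.88, 5.53 and 5.57, a rise of 1.22 ± 0.13 or 2.32-fold (limma adjusted p = 3.2e-05). The groups did not overlap at either probe set.

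The third PIWIL2 probe set, 217421_at, disagreed with these: it read 4.09, 4.01 and 4.03 in untreated CP70 and 4.39, 4.31 and 3.96 after decitabine, which overlapped. Its difference was 0.18 with a 95% interval of -0.05 to 0.41 (limma adjusted p = 0.418). The interval lies wholly below those of the other PIWIL2 probe sets, 1.25 to 1.88 and 0.94 to 1.49.

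PIWIL1, a PIWI protein of later male germ cells, read 3.42, 3.54 and 3.51 in untreated CP70 and 3.50, 3.40 and 3.85 after decitabine. The groups overlapped, and the difference was 0.09 with an interval of -0.16 to 0.34 (limma adjusted p = 0.758). All 5 group means of PIWIL1 lay between 3.48 and 3.58, below the lower quartile of all values. Its window held 22 CG, between those of GCNA and DAZL.

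Among the Tudor domain proteins, which bind methylated arginines of PIWI proteins, TDRD9 rose and TDRD1 fell short of the threshold with decitabine alone. TDRD9, which is also an RNA helicase, read 3.56, 3.45 and 3.62 in untreated CP70 and 4.58, 4.28 and 4.81 after decitabine. The groups did not overlap, and the rise was 1.01 ± 0.14 or 2.02-fold (limma adjusted p = 0.000522).

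TDRD1, a scaffold for PIWIL2 and related proteins, read 3.58, 3.04 and 3.10 in untreated CP70 and 4.0, 3.76 and 3.57 after decitabine. The lowest treated array lay just under CP70 replicate 1, and the difference of 0.54 ± 0.15 had an interval of 0.21 to 0.86 (limma adjusted p = 0.0547). The call depended on single arrays: without CP70 replicate 1 the difference was 0.704 (limma adjusted p = 0.0173), and without decitabine replicate 3 it was 0.641 (limma adjusted p = 0.0483), in fits that called 1.65% and 1.96% of all probe sets higher.

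DDX4, the VASA helicase of germ cells, rose by a small amount. It read 3.42, 3.49 and 3.56 in untreated CP70 and 4.11, 4.06 and 3.91 after decitabine, with no overlap, a rise of 0.54 ± 0.09 or 1.45-fold (limma adjusted p = 0.00292). The call was lost when only the arrays compared were fitted (limma adjusted p = 0.0546) and it was also missed without CP70 replicates 1 and 3 (limma adjusted p = 0.056), a fit that leaves CP70 with 1 array, replicate 2, assumed to vary like the other groups. The 1 promoter window held for DDX4 had no CG, and whether it is the main promoter of the gene was not tested.

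ASZ1, a scaffold that ties germ cell granules to mitochondria, had group means of 2.82 to 2.90, all below the lower quartile of all values. It read 2.93, 2.70 and 2.86 in untreated CP70 and 2.86, 2.83 and 3.00 after decitabine, a difference of 0.07 with an interval of -0.15 to 0.29 (limma adjusted p = 0.799). The groups overlapped, as did all its neighbouring groups in order of level.

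**Figure D2:**
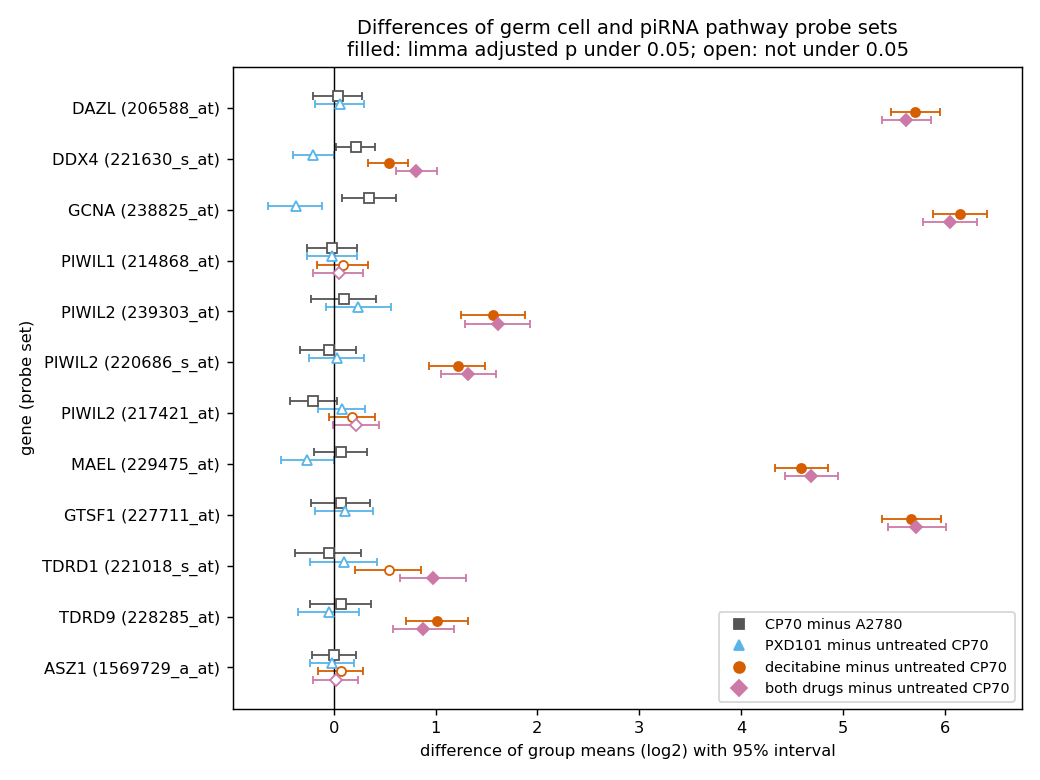
Differences of group means (horizontal axis, log2) with 95% intervals for each probe set (vertical axis) in 4 comparisons; filled symbols passed limma's adjusted p under 0.05 and open symbols did not. With decitabine alone and with both drugs, DAZL, GCNA, GTSF1 and MAEL lie between 4.59 and 6.15, while all PXD101 and line differences lie between -0.37 and 0.35.

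PXD101 alone was compared with untreated CP70 to see whether the deacetylase inhibitor acts on these genes by itself. By limma 0 of 12 probe sets passed in either direction, against 5.92% of all probe sets, and by rank product also 0, against 1.39% of all. At an unadjusted p under 0.05 there were 2, GCNA and DDX4, both lower, against 22.2% of all. The count over all probe sets depended on single arrays: it was 0 in either direction when only the arrays compared were fitted and without CP70 replicate 1 or 3 or any 1 PXD101 replicate, and 6151 higher and 4822 lower (20.1%) without CP70 replicate 2. The differences of the 12 probe sets ran from -0.37 to 0.24 with a median of 0.01.

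GCNA differed by -0.37 ± 0.12 with PXD101 (interval -0.64 to -0.11, limma adjusted p = 0.0848), and all 3 PXD101 arrays lay below the 3 CP70 arrays. Without CP70 replicate 2 the GCNA difference was -0.433 and passed (limma adjusted p = 0.0337), in the fit with 20.1% of all probe sets called. DDX4, at 3.26, 3.40 and 3.20 with PXD101, differed by -0.20 (interval -0.40 to just under 0, limma adjusted p = 0.211). MAEL differed by -0.26 with an interval of -0.52 to 0.00, also without overlap. The upper ends of the PXD101 intervals were 0.30 for DAZL and 0.39 for GTSF1, below the 5.47 and 5.38 at which their decitabine intervals began. For TDRD1 the upper end was 0.43, which lies within its decitabine interval of 0.21 to 0.86.

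The combination was compared with untreated CP70 on the same question. With both drugs 9 of the 12 probe sets were higher by limma and none lower, against 3.95% of all probe sets, and 7 by rank product, against 1.16% of all. This comparison shares its untreated arrays with that of decitabine alone. GCNA rose by 6.05, GTSF1 by 5.72, DAZL by 5.62 and MAEL by 4.69, or 25.7-fold to 66.3-fold. PIWIL2 rose by 1.61 at 239303_at and 1.32 at 220686_s_at, and its remaining probe set differed by 0.22 (interval -0.01 to 0.45).

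TDRD1 passed with both drugs. Its combination arrays read 4.36, 4.11 and 4.17, all above the untreated ones, a rise of 0.98 ± 0.15 or 1.97-fold (limma adjusted p = 0.00108). TDRD9 read 4.25, 4.68 and 4.34 and rose by 0.88 ± 0.14 (limma adjusted p = 0.00132). DDX4 read 4.24, 4.31 and 4.34 and rose by 0.81 ± 0.09 or 1.75-fold (limma adjusted p = 5.97e-05). PIWIL1 differed by 0.05 (interval -0.20 to 0.29) and ASZ1 by 0.02 (interval -0.20 to 0.24).

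Whether PXD101 added to decitabine was tested directly, with 24 h of PXD101 in the combination. By limma 0 of 12 probe sets passed in either direction, against 0.00366% of all probe sets (2 in all), and by rank product 0, against 0.0934%. At an unadjusted p under 0.05 there were 2 of 12, against 5.53% of all. These were TDRD1, higher with both drugs by 0.44 (interval 0.11 to 0.77, limma adjusted p = 0.816), and DDX4, higher by 0.27 (interval 0.08 to 0.47, limma adjusted p = 0.804). At both genes all 3 combination arrays lay above the 3 decitabine arrays.

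For the genes that rose most, the intervals of this difference were narrow against the rise itself. They were -0.33 to 0.15 for DAZL, -0.36 to 0.17 for GCNA, -0.16 to 0.36 for MAEL and -0.23 to 0.34 for GTSF1, and the arrays of both groups overlapped at each. PIWIL2 probe sets differed by 0.04 to 0.11, and TDRD9 by -0.14 (interval -0.44 to 0.17).

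What decitabine added to PXD101 was read from the combination against PXD101 alone, with unequal PXD101 exposure. Of the 12 probe sets 9 were higher by limma, against 3.94% of all, and 9 by rank product, against 2.05%. GCNA was higher by 6.42 (85.9-fold), GTSF1 by 5.62, DAZL by 5.57, MAEL by 4.94 and DDX4 by 1.01, and TDRD1 by 0.88. PIWIL1 and ASZ1 differed by 0.06 and 0.04 and did not pass.

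A non-additive response, what remains of the combined change once the change with either drug alone is taken off, passed by limma at 0 of 12 probe sets, against 0.0146% of all probe sets (8 in all). At an unadjusted p under 0.05 there was 1, against 15.3% of all: DDX4, at 0.47 ± 0.13 (interval 0.20 to 0.75, limma adjusted p = 0.208). Without CP70 replicate 2 the DDX4 term was 0.476 and passed (limma adjusted p = 0.0364), in a fit that called 13.2% of all probe sets. MAEL stood at 0.35 (interval -0.01 to 0.72) and DAZL at -0.15 (interval -0.49 to 0.19). The term takes in the different PXD101 exposures of its arms.

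The untreated lines were compared to see whether these genes differ between resistant CP70 and its parent. By limma 0 of 12 probe sets passed in either direction, against 24.0% of all probe sets, and by rank product 0, against 4.51%. At an unadjusted p under 0.05 there were 2, GCNA and DDX4, both higher in CP70, against 32.9% of all. The 12 differences ran from -0.20 to 0.35 with a median of 0.06. GCNA, at 4.47 in CP70 and 4.12 in A2780, differed by 0.35 ± 0.12 without overlap (limma adjusted p = 0.0547). That miss turned on single arrays: without A2780 replicate 3 the difference was 0.425 (limma adjusted p = 0.0406), and without CP70 replicate 2 it was 0.408 (limma adjusted p = 0.0327), in fits that called 20.3% and 29.2% of all probe sets. DDX4 differed by 0.22 (interval 0.02 to 0.41, limma adjusted p = 0.11).

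Decitabine-treated CP70 was also set against A2780, to place the levels reached against the parental line. Of the 12 probe sets 9 were higher than in A2780 by limma, against 11.6% of all, and 5 by rank product, against 2.61%. GCNA was higher by 6.50 (90.3-fold), DAZL by 5.76, GTSF1 by 5.74 and MAEL by 4.66. TDRD1 was higher by 0.48 ± 0.15 (limma adjusted p = 0.0303), a call lost without A2780 replicate 2 or 3 or decitabine replicate 1 or 2 (limma adjusted p = 0.125, 0.0727, 0.138 and 0.0698).

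**Figure D3:**
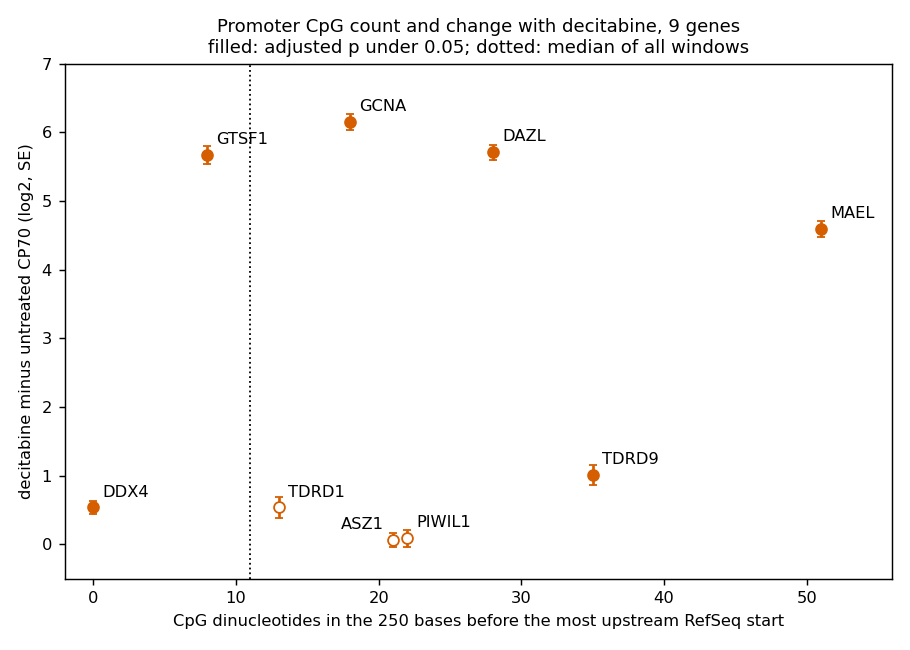
CG dinucleotides in the 250 bases before the most upstream start among the RefSeq entries matched (horizontal axis), which may not hold every start of a gene. The vertical axis is the decitabine minus untreated CP70 difference (log2, with SE) for the 9 genes with a promoter entry. Filled points passed limma's adjusted p under 0.05 and the dotted line is the median of all windows (11). GTSF1 with 8 CG and MAEL with 51 CG both rose by over 4 log2, whereas PIWIL1 and ASZ1, with 22 and 21 CG, did not pass. The position of a gene depends on the start chosen: the more downstream windows of MAEL, DAZL and TDRD1, not plotted, held 22, 23 and 15 CG.

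Genes whose pattern was most like that of DAZL were sought by Pearson correlation over the 15 arrays, which fall into a high and a low cluster by decitabine, so that r mostly reflects this split. The 5 closest outside the set were TKTL1 (r = 0.9981), a transketolase-like gene, and the cancer-testis antigen genes MAGEA12 (0.9975), CTAG2 (0.997), SSX1 (0.9967) and MAGEA6 (0.9966). Within the set, r with DAZL was 0.998 for GTSF1, 0.9969 for GCNA and 0.9968 for MAEL. It was 0.9742 and 0.9708 for the PIWIL2 probe sets that rose, 0.9497 for TDRD9, 0.939 for DDX4 and 0.8393 for TDRD1. The third PIWIL2 probe set, PIWIL1 and ASZ1 stood at 0.3864, 0.2799 and 0.2409.

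Part of the rest of the pathway rose with decitabine. Of 26 other piRNA pathway genes listed, 24 were named on the array and are counted at the probe set of highest mean, and 8 of 24 rose with decitabine and none fell, against 4.38% of 19775 genes called higher. Their median difference was 0.29, against 0.02 for all genes. GPAT2, a mitochondrial acyltransferase needed to make piRNAs, rose by 3.24 ± 0.16 (limma adjusted p = 4.88e-09), from 4.50, 4.42 and 4.37 to 7.75, 7.47 and 7.77. PNLDC1, the exonuclease that trims piRNA ends, rose by 2.23 ± 0.20 (limma adjusted p = 4.47e-06), TDRD12, another Tudor protein, by 2.62 ± 0.29 (limma adjusted p = 4.75e-05) and STK31, a Tudor domain kinase, by 0.92 ± 0.14 (limma adjusted p = 0.00115). The other 4 rose by 0.51 to 0.94.

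With both drugs 7 of these 24 rose and none fell, against 5.52% of genes called higher, led by GPAT2 at 3.18, TDRD12 at 2.58 and PNLDC1 at 2.24. With PXD101 0 of 24 passed by limma, against 7.91% of genes in either direction. At an unadjusted p under 0.05 there were 4, against 22.2% of all probe sets. Between the lines 2 of 24 passed, against 29.9% of genes in either direction: MYBL1, a transcription factor of piRNA genes, was higher in CP70 by 1.37 and TDRKH, a mitochondrial Tudor protein, lower by 0.53 (-0.53 ± 0.13). These counts turned on single arrays. Without CP70 replicate 2, 11 of the 24 rose and 1 fell with decitabine and likewise with both drugs, while the share of all probe sets called higher went from 2.91% to 8.30% and from 3.95% to 9.42%. Without CP70 replicate 1 there were 5 that rose with decitabine, against 1.65% of all probe sets. These shares are over probe sets, whereas the list is counted by gene. In the reported fits the shares of genes were larger, at 4.38% with decitabine and 5.52% with both drugs. TEX19, a germ cell protein that restrains transposons, had a CP70 replicate 2 within the PXD101 range: it read 5.06, 7.40 and 5.83 in untreated CP70 and 7.30, 7.86 and 7.36 with PXD101, a difference of 1.41 ± 0.41 (limma adjusted p = 0.053).

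**Figure D4:**
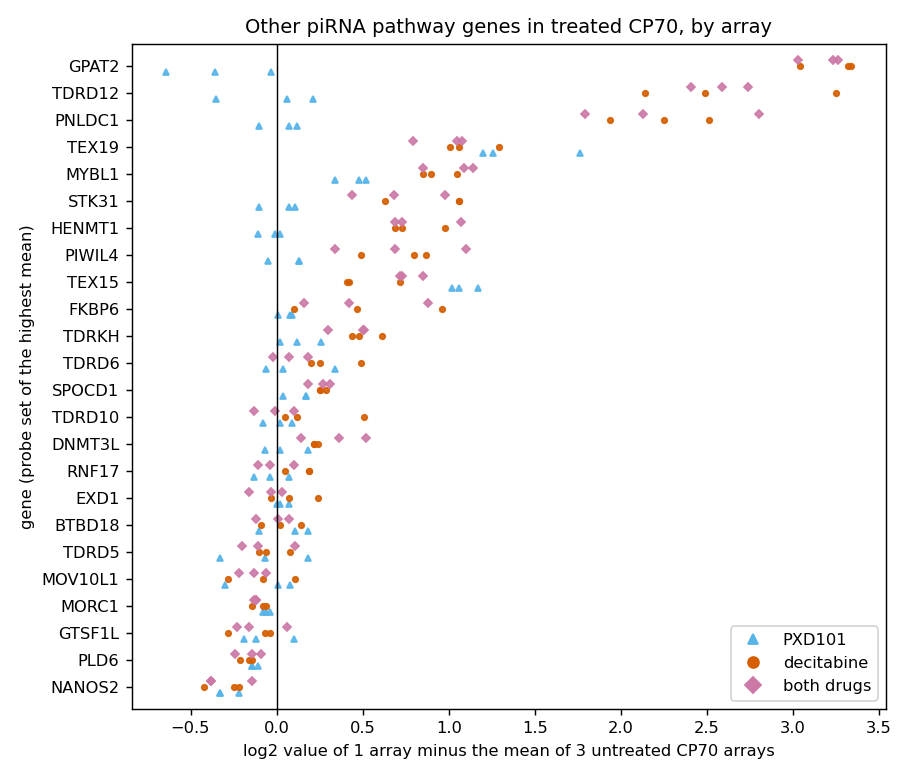
Values of single treated CP70 arrays minus the mean of the 3 untreated CP70 arrays (horizontal axis, log2) for 24 other piRNA pathway genes (vertical axis), by treatment. GPAT2, TDRD12 and PNLDC1 lie to the right of all their PXD101 arrays on all 6 arrays with decitabine, and GPAT2 rose by 3.24 with decitabine alone.

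Other germ cell lists were counted in the same way. Of 28 further germ cell RNA and fate genes, 23 were named on the array, and 3 rose with decitabine and none fell, against 4.38% of all genes called higher: TEX11, a meiotic crossover protein, by 2.00 ± 0.13 (limma adjusted p = 1.2e-07), SOHLH1, a germ cell transcription factor, by 0.82, and DND1, an RNA-binding protein, by 0.77. Without CP70 replicate 2 there were 5, against 8.30% of all probe sets, a share over probe sets and not over genes. With both drugs 4 rose, against 5.52% of all genes, and with PXD101 0 passed, against 7.91% of all genes in either direction. With PXD101 2 were at an unadjusted p under 0.05, against 22.2% of all probe sets. Between the lines 2 of 23 passed, against 29.9% of all genes in either direction, with YBX2 differing by -1.03 and PRDM1 by -0.75 in CP70. Of 15 spermatid and sperm markers 0 passed with decitabine (1 at an unadjusted p under 0.05, against 18.9% of all probe sets). Of 8 oocyte markers 1 rose with decitabine, OOEP by 0.62.

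Lists bearing on germline gene silencing and on other small RNA pathways were counted too. Of 19 genes of the germline repressor complexes and DNA methylation, 2 rose with decitabine, the zinc finger gene ZFP42 by 2.48 and the methyltransferase DNMT3A by 0.84, and MAX fell by 0.39 (-0.39 ± 0.11), against 4.38% of all genes called higher. Without CP70 replicate 2, 9 rose and 1 fell, against 8.30% of all probe sets called higher, a share over probe sets and not over genes. UHRF1, which brings DNMT1 to replicating DNA, read 8.68, 10.46 and 8.71 in untreated CP70 and 10.44, 10.26 and 10.52 after decitabine. DNMT3A read 5.86, 6.92 and 5.92 and then 6.90, 6.90 and 7.41, which overlapped through CP70 replicate 2. These changes were not particular to decitabine. With PXD101 alone DNMT3A rose by 0.84, DNMT3B by 1.37 and UHRF1 by 1.18, and MAX fell by 0.59. All of these passed by limma, against 7.91% of all genes in either direction. Of 16 somatic Argonaute and small RNA genes 0 passed with decitabine, with 2 at an unadjusted p under 0.05, against 18.9% of all probe sets. Without CP70 replicate 2, 3 rose and 2 fell with decitabine, against 8.30% of all probe sets called higher and 7.47% lower.

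Markers of other cell types were read beside these results, with decitabine calling 4.38% of 19775 genes higher. Of 11 somatic markers of the gonads 0 passed with decitabine (3 at an unadjusted p under 0.05, against 18.9% of all probe sets). Their list medians ran from 4.24 to 4.30 in untreated CP70 and from 4.23 to 4.64 with decitabine. Of 12 leukocyte markers 1 rose, TYROBP by 1.30, with list medians of 4.38 to 4.42 and 4.35 to 4.62. Of 13 fibroblast and endothelial markers 3 rose, COL1A1 by 1.42, ACTA2 by 1.48 and THY1 by 0.70, and 1 fell, COL3A1 by 0.47 (-0.47 ± 0.11). The list medians were 6.38 to 6.49 in untreated CP70 and 7.42 to 7.74 with decitabine. COL1A1 itself read 7.42 and 7.74 on decitabine replicates 1 and 2, the list medians of those arrays. Of 12 ovarian epithelial markers 5 rose and none passed as lower, led by KRT19 at 2.67 and KRT8 at 1.37. The part of these markers in the rise of the germ cell genes was not tested.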

How the data were processed

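The authors deposited 1 table of log2 expression values for 54675 probe sets on 15 arrays; R 2.10.1 and affy are named in the submitters' processing notes, while the background correction, normalization and summarization steps were not given in the sources used here. Per the labels' protocols, RNA was purified on RNeasy columns, amplified with the WT-Ovation Pico kit and biotin-labelled. Arrays give no depth, and their number limits the precision. The 62 control probe sets were left out. Of the 54613 others, 41091 carried 1 symbol, 1801 several and 11721 none in the platform annotation, which was updated through Entrez IDs (41037 matched).

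Each comparison was fitted with limma 3.58.1 (lmFit and eBayes, R 4.3.3) on all probe sets and all 15 arrays with group means only, and p-values were adjusted over the 54613 (Benjamini-Hochberg), with calls at an adjusted p under 0.05. Rank product used 9 pairwise array differences, 100 permutations and a percentage of false positives under 5. Errors are the SE of the fit for differences and the SD of 3 arrays for levels. The fit was tested on simulated data. Tables and figures were made with Python 3.11.15, numpy 2.4.6, pandas 2.3.3 and matplotlib 3.10.9. Promoter sequences were RefSeq's on GRCh38.p14.

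All member probe sets are named. In the other gene lists up to 4 genes of smallest p per comparison are named, along with PIWIL4, and outside them the 5 genes most correlated with DAZL. The members and lists were chosen with earlier results of these data known. Alternatives covered the arrays fitted, a replicate block, left-out replicates, 1 probe set or the mean per gene, a level filter, array weights, a minimum of 2-fold, 2 normalizations and rank product. Replicate numbers were not taken to pair the samples.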

Additional observations from a re-analysis of the deposited data

How the results depend on the processing

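No member probe set that passed changed sign under any alternative. Members called higher in CP70 than in A2780 numbered 0 in the reported fit and 1 with 1 probe set per gene, with the mean of probe sets, above the median level or after repeated quantile normalization, 2 with array weights, and 0 to 1 with a replicate left out. The share of all probe sets or genes called higher was 11.5% in the reported fit and 16.9% with array weights. It was 11.8% to 20.9% in the per-gene, level and quantile fits, and 8.73% to 13.8% with a replicate left out. The filter on probe sets above the median level kept 3 members, which passed through the treated groups, and 3 were higher with decitabine, with both drugs against untreated CP70 or PXD101, and in decitabine-treated CP70 against A2780, where rank product gave 5. Array weights gave 1 member with a higher non-additive term, against 6.79% of all probe sets, and 1 lower with PXD101, against 11.9%. Leaving out a replicate gave 0 to 1 for each. The fit without CP70 replicate 2 gave 1, against 6.25% and 8.83% of all probe sets. The causes were not tested. Replicate numbers did not pair the samples: over 30 same-number pairs the correlation of deviations was -0.323 to 0.378 with a median of 0.026. With a replicate block 9 members were higher with decitabine, TDRD1 among them (limma adjusted p = 0.0132), and 9 with both drugs, against 2.53% and 3.60% of all probe sets. TDRD1 with decitabine also passed with array weights and with either value per gene, and TDRD1, DDX4 and TDRD9 missed a 2-fold minimum in some comparisons. Over all probe sets, 1590 were higher with decitabine in the reported fit, 613 when only the arrays compared were fitted and 4841 with array weights. With decitabine and array weights, 11 other piRNA pathway genes rose and 1 fell, in a fit that called 8.86% of all probe sets higher and 8.58% lower. With both drugs and array weights, 13 of these genes rose and 2 fell, in a fit that called 12.4% of all probe sets higher and 11.3% lower.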
